A study of Homo sapiens with 15 samples.

Results

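The ERBB receptors and their EGF-family ligands were followed through 15 RNA libraries of MDA-MB-468 cells. The group holds 10 genes, chosen by symbol among the 61552 genes of the count table: the 3 receptors EGFR, ERBB2 and ERBB3 and the 7 ligands TGFA, AREG, EREG, HBEGF, BTC, EPGN and EGF. All 10 had enough counts to be tested in both experiments. This established line comes from a human breast tumour of the basal-like, triple-negative type and is known for amplification of EGFR.

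Signalling of this kind begins at the cell surface. Ligands are made as membrane-bound precursors, cut loose by metalloproteases and bound by a receptor, which then pairs with another receptor and is phosphorylated by its kinase domain. EGFR binds all ligands named here, ERBB2 binds none and acts as a partner, and ERBB3 binds neuregulins and has hardly any kinase activity of its own. AREG, HBEGF, EREG and TGFA are also known as genes that EGFR signalling through the MAP kinase pathway turns up, which makes the family part of its own feedback.

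In the drug experiment the parental cells were starved of serum for 12 h, given 10 ng/mL EGF and kept for 12 h with EGF alone (EGF), with 10 μM cSNX1.3 as well (cSNX1.3) or with 15 μM erlotinib as well (erlotinib, labelled ERL). The cSNX1.3 peptide was made to keep EGFR from its partner Sorting Nexin 1, a step on the receptor's way to the nucleus, whereas erlotinib inhibits the EGFR kinase. All 9 libraries of that experiment received EGF, no library without EGF or with a control peptide was analysed here, and the drug comparisons are thus drug plus EGF against EGF. In the line experiment the cells carried a lentiviral shRNA against EGFR, induced with 1 mM IPTG, and were transfected with EGFR-GFP that was either wildtype (WT, labelled shEGFR-WT) or mutated in its nuclear localization signal (NLS, labelled shEGFR-NLS). Both line groups share the shRNA, the IPTG, the GFP fusion and EGF treatment. The EGF dose, the treatment time and any serum starvation of the lines are not given in the sources used here, so they may differ from those of the drug experiment. The table counts reads per gene, so endogenous EGFR mRNA and the introduced EGFR-GFP mRNA cannot be told apart. Each group has 3 replicates. Nothing in the sources says that they were separate cultures, so p-values measure the spread between these samples, which may be technical.

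Between 22915676 and 35900649 read pairs were counted on genes per library. Keratins KRT5, KRT17, KRT8 and KRT18, EPCAM, CDH1, FOXC1 and VIM were present in all 15 libraries, with a summed level of 6003 to 6977 CPM in the erlotinib libraries, 12762 to 17290 in the EGF libraries, 15630 to 20296 with cSNX1.3, 14272 to 16525 in WT and 8807 to 11004 in NLS libraries. CPM are read counts scaled to library size, with library sizes adjusted by the TMM method. PGR, KLRD1 and DCN had 0 counts in the 15 libraries together, LUM had 1, CD3E had 4, NKG7 had 9 and PTPRC had 37, while ESR1 reached a group mean of 7.18 CPM. Other markers on the same lists were detected, COL1A1 with group means of 9.42 to 20.6 CPM, PECAM1 with 1.17 to 5.18, NCAM1 with 0.498 to 3.05, VWF with 0.130 to 0.681 and PDGFRB with 0.147 to 0.223. The summed leukocyte and NK list, most of it NCAM1, ran from 2.86 to 3.44 CPM in erlotinib and 0.904 to 1.57 in EGF libraries, the fibroblast list from 11.0 to 15.03 and 15.9 to 18.9, and the endothelial list from 1.80 to 2.08 and 0.851 to 1.53. In the lines the leukocyte and NK list ran from 1.39 to 1.61 CPM in NLS and 0.498 to 0.696 in WT, the fibroblast list from 8.41 to 10.7 in NLS and 10.7 to 12.9 in WT, and the endothelial list overlapped. With cSNX1.3 the fibroblast list (20.2 to 21.5) and the endothelial list (1.90 to 2.13) were above the EGF range. The part of these marker differences in the results below was not tested. EGF replicate 2, cSNX1.3 replicate 1 and WT replicate 2 stood apart from the other 2 libraries of their groups over all genes, and EGF replicate 2 was the lowest of its group for 8 of the 10 family members and WT replicate 2 for 7. Erlotinib replicate 1 and NLS replicate 1 were each lowest for 6. The 3 erlotinib libraries all differed from one another, by 12.4 to 24.5 times the sampling variance of counts, so none of them was singled out. Calls that change without the 3 libraries that stood apart are given with and without them. In bulk RNA, a difference in the RNA per cell and a difference in the number of cells that make it cannot be told apart.

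The 4 members with the largest called changes in erlotinib vs. EGF were AREG, HBEGF, BTC and ERBB2. AREG (amphiregulin) and HBEGF (heparin-binding EGF-like growth factor) are ligands whose RNA was lowest with erlotinib and highest with cSNX1.3. BTC (betacellulin, a ligand of EGFR and ERBB4) and ERBB2 (HER2, the partner receptor) had their highest group means with erlotinib. The 250 bases before the RefSeq start of each gene on GRCh38.p14 are shown as the promoter stretches of these 4 genes, with letters found by a search in capitals.
AREG: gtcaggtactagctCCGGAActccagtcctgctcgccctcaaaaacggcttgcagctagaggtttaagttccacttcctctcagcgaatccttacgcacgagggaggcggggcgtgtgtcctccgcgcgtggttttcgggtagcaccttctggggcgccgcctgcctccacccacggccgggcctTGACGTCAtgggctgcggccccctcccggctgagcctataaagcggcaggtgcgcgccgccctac
HBEGF: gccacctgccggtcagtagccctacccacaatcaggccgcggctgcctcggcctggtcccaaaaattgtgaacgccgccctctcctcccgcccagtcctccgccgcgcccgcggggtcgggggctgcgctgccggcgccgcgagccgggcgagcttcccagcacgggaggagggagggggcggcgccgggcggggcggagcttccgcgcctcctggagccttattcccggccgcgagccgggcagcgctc
BTC: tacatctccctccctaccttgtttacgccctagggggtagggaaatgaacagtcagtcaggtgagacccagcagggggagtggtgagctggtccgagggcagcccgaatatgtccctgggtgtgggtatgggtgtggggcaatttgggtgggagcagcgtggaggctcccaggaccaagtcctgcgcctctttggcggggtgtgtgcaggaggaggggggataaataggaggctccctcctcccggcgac
ERBB2: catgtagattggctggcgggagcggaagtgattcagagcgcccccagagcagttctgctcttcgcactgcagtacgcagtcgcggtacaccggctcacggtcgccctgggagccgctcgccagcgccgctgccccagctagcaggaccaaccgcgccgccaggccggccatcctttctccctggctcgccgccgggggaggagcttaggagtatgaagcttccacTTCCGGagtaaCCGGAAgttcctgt
These stretches are chr4:74444886-74445135, forward strand for AREG, chr5:140346604-140346853, reverse strand for HBEGF, chr4:74794524-74794773, reverse strand for BTC and chr17:39687844-39688093, forward strand for ERBB2, each written 5′ to 3′ on the strand of its gene. Searched on both strands were the AP-1 letters TGACTCA or TGAGTCA, the cAMP response element (CRE) letters TGACGTC and the ETS core letters CCGGAA, in windows from 250 bases before to 50 bases after the start. Of the 10 genes, 9 had a window in the table, all but ERBB3, and EGFR and TGFA had more than 1.

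AREG held the CRE letters 65 bases before its start, found on both strands because the site is a palindrome, and the ETS letters at position -236. Over 35116 human promoter windows of the same length, 3.446% held the CRE letters, 17.25% the ETS letters and 4.949% the AP-1 letters. ERBB2 held the ETS letters at positions -25 and -14, in opposite orientations. Its RefSeq start lies downstream of the annotated gene start at chr17:39687914, so both matches fall inside the annotated gene. HBEGF and BTC held none of the 3, and neither did EREG and EPGN. The EGF gene held AP-1 letters at position -17, TGFA held ETS letters at -208 of a window and EGFR held AP-1 letters at -232 and -136 of its downstream window, which starts at chr7:55109589. A match is a description of letters in a window and no evidence of binding, and a window without a match says only that these letters are not in it.

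The genes lie on 6 chromosomes of GRCh38. EGFR occupies chr7:55019017-55211628 with 28 exons in its canonical transcript, ERBB2 chr17:39687914-39730426 with 27 and ERBB3 chr12:56076799-56103505 with 28, all on the forward strand. TGFA (chr2:70447284-70554193) and HBEGF (chr5:140332843-140346603) are on the reverse strand. EPGN (chr4:74308470-74316789), EREG (chr4:74365145-74388749) and AREG (chr4:74445136-74455005), on the forward strand, and BTC (chr4:74744759-74794523), on the reverse strand, form a cluster of ligand genes within 486 kb, and the EGF gene (chr4:109912883-110013766) lies elsewhere on the same chromosome. With erlotinib the 4 clustered genes did not all move in the same direction: AREG was lower and BTC higher, as given further on. In NLS vs. WT all 4 log2 fold changes were negative (EPGN -1.33, EREG -0.83, AREG -0.75 and BTC -0.92), and EREG was not called. EPGN, EREG and AREG also shared a sign with each drug, negative with erlotinib and positive with cSNX1.3. Of these, EPGN and EREG were not called with either drug and rested on few counts. The share of all genes with the same signs was not taken, so no more is read from them. Because counting ignored strand, ERBB2 shares ground with PGAP3 (3830 counts over the 15 libraries) and MIEN1 (8377) on the opposite strand, against 22762 counts for ERBB2 itself, and reads from the shared stretches cannot be assigned. For EGFR the antisense gene EGFR-AS1 had 246 counts against 1518646. Exonic reads of all transcripts of a gene were summed, so isoforms are not separated.

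**Figure D1:**
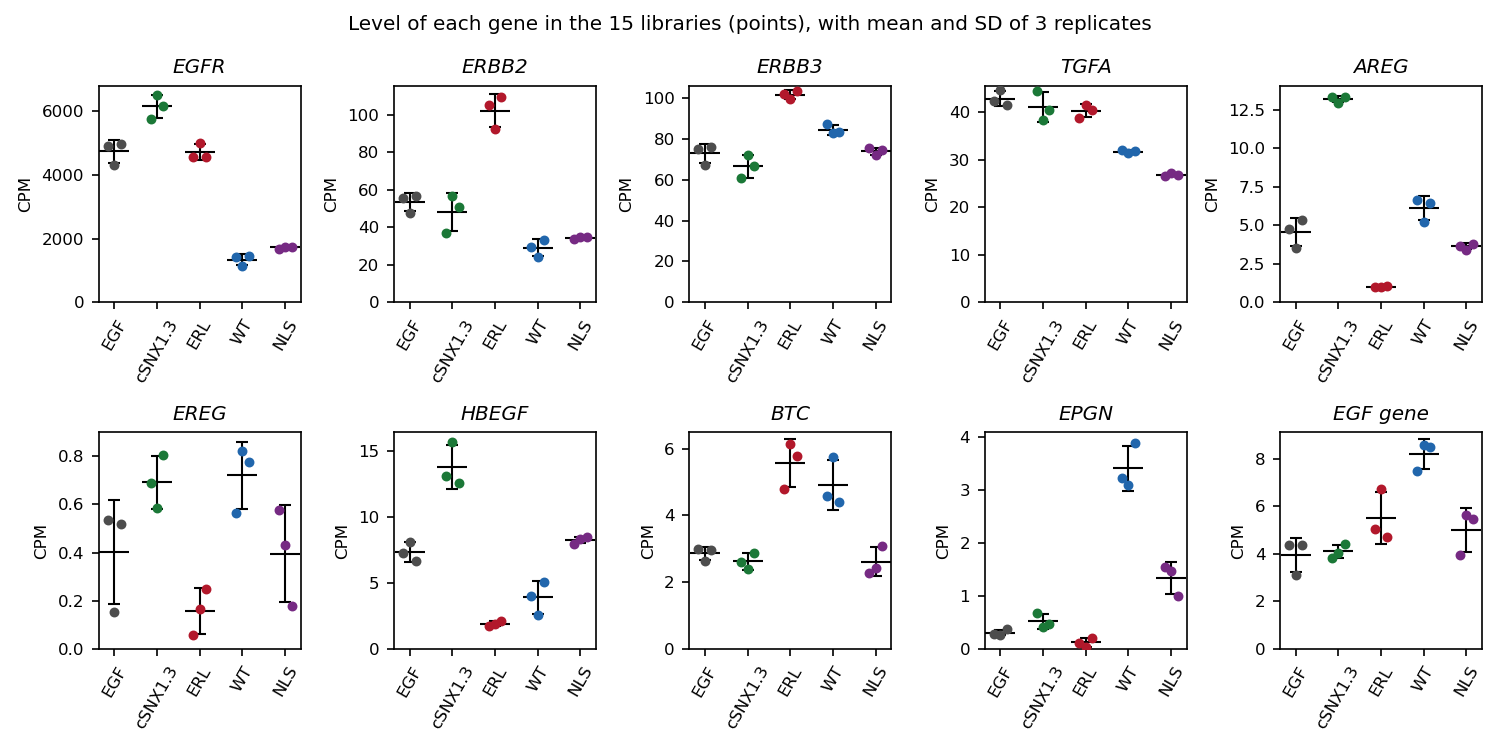
Level of each receptor and ligand gene in CPM (linear axes from 0, a different scale for each gene). Points are the 15 libraries in 5 groups (ERL is erlotinib, WT and NLS the EGFR-GFP lines), horizontal bars the means of 3 replicates and whiskers their SD. AREG and HBEGF are highest with cSNX1.3 and lowest with erlotinib, ERBB2 is highest with erlotinib, EPGN is highest in the WT line, and EGFR is highest in the cSNX1.3 libraries and lowest in the WT line.

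EGFR was by far the most abundant member. Per kilobase of exon, the scale on which genes can be compared, it reached 297 ± 22.6 CPM per kb in the EGF libraries (SD, n = 3), where ERBB3 reached 6.22 ± 0.408 and ERBB2 5.17 ± 0.464. EGFR took 0.397 to 0.501% of all counts in an EGF library. Among the receptors it made up 94.1 ± 0.581% of the summed per-kb level with erlotinib, 96.3 ± 0.00744% with EGF, 97.4 ± 0.207% with cSNX1.3, 89.3 ± 0.742% in WT and 91.8 ± 0.208% in NLS (SD, n = 3 each). For the lines the full exon length of EGFR was used, although the length of the EGFR-GFP mRNA is not given in the sources used here. The shares in the lines may thus not be comparable with those of the drug groups. The fourth receptor, ERBB4, had at most 2 counts in any library and 10 in all. Neuregulins, the ligands of ERBB3 and ERBB4, were nearly undetected: NRG1 had 1 count over the 15 libraries, NRG3 had 3 and NRG4 had 4, and only NRG2, with 3 to 36 counts per library, could be tested. NRG2 was called in none of the main comparisons by edgeR or DESeq2 and had no unadjusted p under 0.05.

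Among ligands the group mean was highest for TGFA (transforming growth factor alpha) in all 5 groups, with AREG at an overlapping level in the cSNX1.3 libraries. Per kilobase of the canonical transcript instead of all exons, AREG was the higher one there, at 10.7 ± 0.171 against 9.97 ± 0.744 CPM per kb (SD, n = 3), and TGFA stayed highest in the other 4 groups. In the EGF libraries TGFA stood at 8.71 ± 0.319 CPM per kb, AREG at 2.78 ± 0.562, HBEGF at 2.45 ± 0.248, BTC at 1.08 ± 0.0751, the EGF gene at 0.520 ± 0.0945, EPGN (epigen) at 0.0935 ± 0.0165 and EREG (epiregulin) at 0.0703 ± 0.0377 (SD, n = 3). AREG and HBEGF did not differ beyond their spread there, nor did EPGN and EREG. The 7 ligands together made 15.7 ± 0.213 CPM per kb with EGF, beside 308 ± 23.5 for the 3 receptors.

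Erlotinib was compared with EGF to ask how the family responds when the receptor kinase is inhibited. Of the 10 members 6 passed edgeR's quasi-likelihood test (Benjamini-Hochberg adjusted p under 0.05), beside 44.0% of the 15738 genes tested: ERBB2, ERBB3, BTC and the EGF gene rose, and AREG and HBEGF fell. In the same comparison 22.8% of all genes were called higher and 21.2% lower. The share of members called was thus near the background, and no more is read from the count. The ranges of the 3 erlotinib and 3 EGF libraries did not overlap for 8 members, beside 52.3% of all genes.

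AREG measured 1.008, 1.02 and 1.06 CPM in the erlotinib libraries and 4.76, 3.55 and 5.37 CPM in the EGF libraries. The erlotinib libraries lay close together and far under the lowest EGF library. The fall was 4.39-fold, a log2 fold change of -2.14 ± 0.19 (SE; edgeR, adjusted p = 3.28e-07), on 25 to 34 counts per erlotinib library.

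HBEGF measured 1.75, 1.88 and 2.12 CPM with erlotinib and 7.23, 8.10 and 6.62 CPM with EGF. Again no library of one group reached the other. Its fall was 3.79-fold, a log2 fold change of -1.92 ± 0.16 (SE; edgeR, adjusted p = 1.25e-07).

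ERBB2 went the other way, with 105, 92.4 and 109 CPM in the erlotinib libraries against 55.7, 47.9 and 56.6 CPM in the EGF libraries. All 3 erlotinib libraries were above all 3 EGF libraries. The rise was 1.93-fold, a log2 fold change of 0.95 ± 0.13 (SE; edgeR, adjusted p = 3.09e-05). ERBB3, the kinase-poor partner receptor, measured 102, 99.5 and 104 CPM against 75.2, 67.4 and 76.0 CPM. It rose 1.40-fold without overlap of the groups, a log2 fold change of 0.49 ± 0.09 (edgeR, adjusted p = 0.000427). BTC measured 4.77, 6.14 and 5.79 CPM against 2.999, 2.64 and 2.96 CPM, again without overlap. Its rise was 1.95-fold, a log2 fold change of 0.96 ± 0.17 (edgeR, adjusted p = 0.000276).

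For EGFR itself no difference was detected. Levels of 4564, 4992 and 4567 CPM with erlotinib stood beside 4917, 4318 and 4963 CPM with EGF, and the groups overlapped. The log2 fold change was 0.00 with a 95% confidence interval of -0.24 to 0.24 (edgeR, adjusted p = 0.995), which leaves room for a change of that size in either direction. TGFA measured 38.8, 41.5 and 40.4 CPM against 42.3, 44.6 and 41.6 CPM. The log2 fold change of -0.08 (interval -0.26 to 0.10) did not pass the test (edgeR, adjusted p = 0.482), although the highest erlotinib library lay just under the lowest EGF library.

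The EGF gene, which encodes the growth factor that was also added to the medium as protein, measured 5.07, 6.75 and 4.73 CPM with erlotinib and 4.40, 3.13 and 4.37 CPM with EGF. The groups did not overlap, and the log2 fold change of 0.48 ± 0.18 passed the test narrowly (edgeR, adjusted p = 0.0448, and 0.0307 to 0.0788 over the other ways of fitting). The call was lost when EGF replicate 1, 2 or 3 or erlotinib replicate 2 was left out, with adjusted p between 0.0532 and 0.202.

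EREG and EPGN were close to the detection limit, with 2 to 7 and 1 to 6 counts per erlotinib library. EREG had 13, 4 and 14 counts in the EGF libraries, of which replicate 2 overlapped the erlotinib range. Its log2 fold change of -1.37 ± 0.59 missed the threshold (edgeR, adjusted p = 0.0702). Without EGF replicate 2 it was -1.77 and passed (edgeR, adjusted p = 0.0164, against 0.0564 to 0.124 over the other ways of fitting all libraries). EPGN had 7, 7 and 10 counts in the EGF libraries and a log2 fold change of -1.25 ± 0.57 (edgeR, adjusted p = 0.0858). It passed when all 15 libraries were fitted together (adjusted p = 0.0427, the lowest of 0.0427 to 0.186 over the ways of fitting). For both genes the depth does not allow a firm statement.

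**Figure D2:**
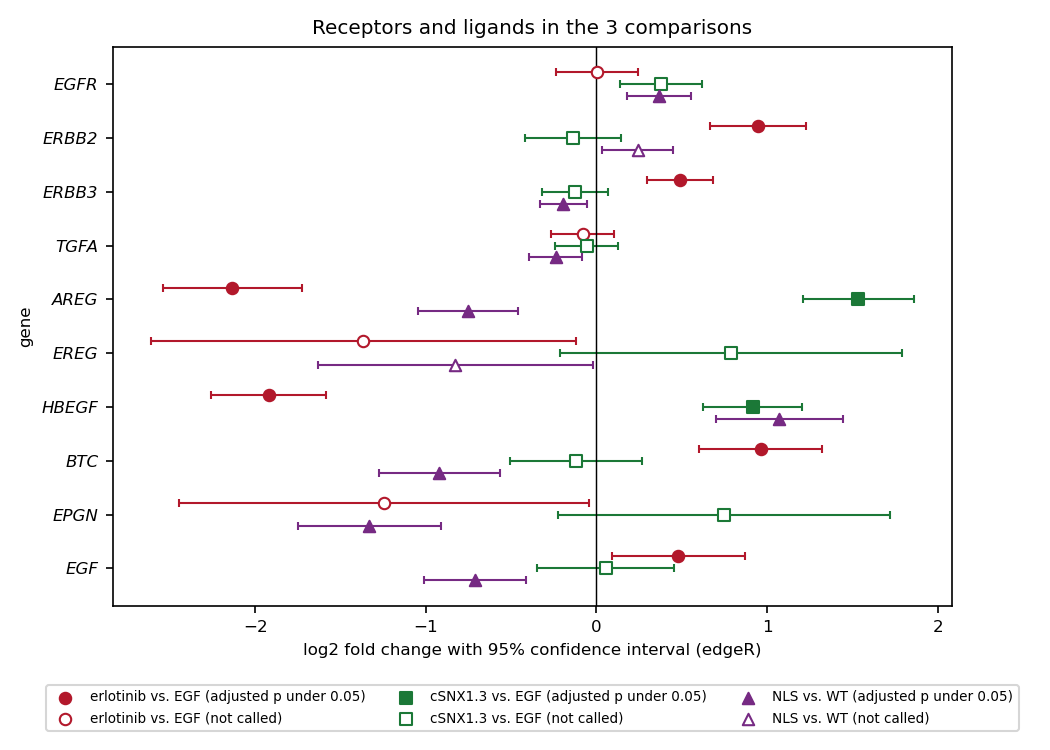
Log2 fold change of each receptor and ligand gene (horizontal axis) in erlotinib vs. EGF, cSNX1.3 vs. EGF and NLS vs. WT. Whiskers are 95% confidence intervals of edgeR's fit, filled symbols passed an adjusted p of 0.05 and open symbols did not. AREG and HBEGF lie to the left with erlotinib (-2.14 and -1.92) and to the right with cSNX1.3 (1.54 and 0.92), and in NLS vs. WT they lie on opposite sides (-0.75 and 1.07). The first 2 comparisons share the EGF libraries.

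cSNX1.3 was compared with EGF to ask what follows when a peptide meant to block the route of EGFR to the nucleus is added to EGF. AREG and HBEGF rose and no member fell, so 2 of 10 were called beside 6.07% of all genes tested, of which 3.38% were higher and 2.69% lower. For 5 members (EGFR, AREG, EREG, HBEGF and EPGN) the ranges of the groups did not overlap, beside 25.7% of all genes in either direction.

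AREG measured 13.3, 12.98 and 13.4 CPM in the cSNX1.3 libraries, with an SD of 0.211 CPM, beside 4.76, 3.55 and 5.37 CPM with EGF. The rise was 2.90-fold, a log2 fold change of 1.54 ± 0.15 (SE; edgeR, adjusted p = 2.15e-05). HBEGF measured 13.1, 15.7 and 12.6 CPM beside 7.23, 8.10 and 6.62 CPM. Every cSNX1.3 library was above every EGF library, and the rise was 1.89-fold, a log2 fold change of 0.92 ± 0.14 (edgeR, adjusted p = 0.000544).

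EGFR RNA measured 5760, 6502 and 6166 CPM with cSNX1.3 against 4917, 4318 and 4963 CPM with EGF. The groups did not overlap, and the log2 fold change was 0.38 with an interval of 0.14 to 0.62, but the gene missed the threshold (edgeR, adjusted p = 0.0622). It passed without cSNX1.3 replicate 1 (adjusted p = 0.0419) and without the 3 libraries that stood apart (0.0455), and over the other ways of fitting all libraries its adjusted p ran from 0.000600 to 0.105. EREG, at 0.687, 0.584 and 0.803 CPM with cSNX1.3, rested on 14 to 22 counts per library and had a log2 fold change of 0.79 with an interval of -0.21 to 1.79 (edgeR, adjusted p = 0.397), which was 0.39 without EGF replicate 2. EPGN, on 10 to 15 counts, had 0.75 with an interval of -0.23 to 1.72 (edgeR, adjusted p = 0.41), and 0.43 without the 3 libraries that stood apart.

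The other 5 members overlapped between cSNX1.3 and EGF and were not called. The log2 fold change was -0.14 for ERBB2 (interval -0.42 to 0.14), -0.13 for ERBB3 (-0.32 to 0.07), -0.06 for TGFA (-0.24 to 0.13), -0.12 for BTC (-0.51 to 0.26) and 0.05 for the EGF gene (-0.35 to 0.46). For ERBB2 the cSNX1.3 libraries spread from 37.2 CPM in replicate 1, which stood apart over all genes, to 56.8 CPM in replicate 2, and without replicate 1 its log2 fold change was 0.02. Without the 3 libraries that stood apart the values were -0.06 for ERBB2, -0.13 for ERBB3, -0.09 for TGFA, -0.18 for BTC and -0.05 for the EGF gene, none of them called. Changes within these intervals are not excluded. The intervals are not adjusted for the number of genes tested, so their bounds are not limits of detection.

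Because both drugs are set against the same 3 EGF libraries, their difference was tested directly, cSNX1.3 against erlotinib. Of the 10 members 8 passed, beside 56.1% of all genes tested (27.6% higher and 28.5% lower with cSNX1.3), and 9 had ranges that did not overlap, beside 60.2%. AREG was 12.7-fold higher with cSNX1.3 than with erlotinib (log2 fold change 3.67 ± 0.18; edgeR, adjusted p = 1.69e-10) and HBEGF was 7.16-fold higher (2.84 ± 0.16; adjusted p = 4.82e-10). EREG was 4.45-fold higher (adjusted p = 0.00323) and EPGN 3.99-fold higher (adjusted p = 0.00424), both from few counts. ERBB2 was 2.12-fold lower with cSNX1.3 (adjusted p = 4.42e-06), BTC 2.12-fold lower (adjusted p = 6.21e-05) and ERBB3 1.53-fold lower (adjusted p = 3.06e-05).

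EGFR was 1.298-fold higher with cSNX1.3 than with erlotinib (edgeR, adjusted p = 0.0102, and 4.71e-05 to 0.0147 over the ways of fitting), a call that was lost without cSNX1.3 replicate 2 (adjusted p = 0.0560). TGFA did not pass (log2 fold change 0.02, interval -0.16 to 0.21). The EGF gene was lower with cSNX1.3 by a log2 fold change of -0.42 that missed the threshold (edgeR, adjusted p = 0.0605, and 0.0457 to 0.117 over the ways of fitting), and it passed without erlotinib replicate 3 (adjusted p = 0.0451) and was -0.26 without replicate 2.

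The NLS line was compared with the WT line to ask what changes when the nuclear localization signal of the introduced EGFR is mutated. EGFR and HBEGF rose and ERBB3, TGFA, AREG, BTC, EPGN and the EGF gene fell, so that 8 of 10 members were called beside 41.4% of the 15805 genes tested (20.4% higher and 21.0% lower). For 9 members, all but EREG, the ranges did not overlap, beside 52.2% of all genes.

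EGFR, the gene targeted by the shRNA and restored by transfection, measured 1424, 1147 and 1450 CPM in WT and 1688, 1746 and 1746 CPM in NLS. Every NLS library was above every WT library. The difference was 1.29-fold, a log2 fold change of 0.37 ± 0.09 (SE; edgeR, adjusted p = 0.00367), so the lines being compared did not carry equal EGFR RNA. Whether this part of the total is endogenous or introduced cannot be told apart, and its part in the other differences between the lines was not tested.

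HBEGF measured 4.04, 2.56 and 5.09 CPM in WT and 7.96, 8.32 and 8.47 CPM in NLS. WT spread widely, with replicate 2 the lowest, but stayed under NLS throughout. The rise was 2.10-fold, a log2 fold change of 1.07 ± 0.18 (SE; edgeR, adjusted p = 0.000131). AREG moved in the other direction, from 6.65, 5.22 and 6.45 CPM in WT to 3.66, 3.42 and 3.81 CPM in NLS. It fell 1.68-fold without overlap, a log2 fold change of -0.75 ± 0.14 (edgeR, adjusted p = 0.000392).

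EPGN, which had been near the limit in the drug experiment, measured 3.24, 3.10 and 3.90 CPM in WT and 1.56, 1.48 and 0.996 CPM in NLS, on 28 to 141 counts per library. It fell 2.52-fold, a log2 fold change of -1.33 ± 0.20 (edgeR, adjusted p = 5.11e-05). BTC measured 4.57, 5.76 and 4.40 CPM in WT and 2.28, 2.43 and 3.10 CPM in NLS. Its fall was 1.89-fold, a log2 fold change of -0.92 ± 0.17 (edgeR, adjusted p = 0.000342). The EGF gene measured 7.48, 8.61 and 8.52 CPM in WT and 3.95, 5.64 and 5.48 CPM in NLS, a 1.64-fold fall with a log2 fold change of -0.71 ± 0.14 (edgeR, adjusted p = 0.000735). In all 3 ligands no NLS library reached the WT range.

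Smaller differences separated the remaining members. TGFA fell from 32.0, 31.3 and 31.8 CPM to 26.6, 27.1 and 26.8 CPM, 1.18-fold, with replicates that lay close together (edgeR, adjusted p = 0.0164). That call was lost without NLS replicate 3 (0.0657) or WT replicate 1 (0.0596). ERBB3 fell from 87.4, 82.9 and 83.5 CPM to 75.4, 72.1 and 74.3 CPM, 1.14-fold (edgeR, adjusted p = 0.0263, and 0.0197 to 0.0523 over the ways of fitting), and the call was lost without NLS replicate 2 or 3 or WT replicate 1 or 3 (0.0554 to 0.119). ERBB2 measured 29.7, 24.2 and 33.4 CPM in WT and 33.9, 34.8 and 34.7 CPM in NLS, a log2 fold change of 0.24 with an interval of 0.03 to 0.45 that missed the threshold (edgeR, adjusted p = 0.0585, and 0.0440 to 0.160 over the ways of fitting) and passed without WT replicate 3 (0.0106). Without WT replicate 2, which stood apart, ERBB2 was at 0.13 (adjusted p = 0.192). EREG overlapped between the lines, with 17, 26 and 28 counts in WT and 20, 14 and 5 in NLS (log2 fold change -0.83, interval -1.63 to -0.02; edgeR, adjusted p = 0.0933), and its value was -0.51 without NLS replicate 3.

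Whether the NLS effect differed from a drug effect was tested as an interaction over all 15 libraries, as the NLS minus WT log2 difference less the drug minus EGF log2 difference. The experiments differ in knockdown, transfection, IPTG and handling, and may differ in EGF dose and time. A difference between effects cannot be told apart from these differences between the experiments. Against cSNX1.3, 4 of 10 members differed, all in the negative direction, beside 23.1% of 16524 genes (11.3% positive and 11.8% negative). The difference was -2.29 ± 0.20 for AREG (SE; edgeR, adjusted p = 2.54e-08), which rose with cSNX1.3 and fell in NLS, and -2.08 ± 0.46 for EPGN (adjusted p = 0.00183). BTC (-0.80 ± 0.24; adjusted p = 0.0203) and the EGF gene (-0.77 ± 0.24; adjusted p = 0.0249) also differed, but 2 of 10, AREG and EPGN, were called without WT replicate 2, without cSNX1.3 replicate 3 or without the 3 libraries that stood apart. Without NLS replicate 1 neither BTC (adjusted p = 0.0581) nor the EGF gene (0.0756) was called, while EREG was, and the EGF gene was also lost without WT replicate 3 (0.0508) or EGF replicate 2 (0.0736). HBEGF, which rose in both, had a difference of 0.16 with an interval of -0.33 to 0.65 (adjusted p = 0.683), and EGFR a difference of -0.01 with an interval of -0.32 to 0.30 (adjusted p = 0.971). In the lines EGFR is the gene that was knocked down and reintroduced. Here and against erlotinib, a response of EGFR to the mutation cannot be told apart from a difference in knockdown or in the level of the construct.

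Against erlotinib, 7 of 10 members differed, beside 44.7% of all genes (22.6% positive and 22.1% negative). HBEGF showed the difference of greatest size among the 10, 3.01 ± 0.26 (SE; edgeR, adjusted p = 9.2e-09), since it rose in NLS and fell with erlotinib. AREG fell in both but less in NLS, a difference of 1.39 ± 0.23 (adjusted p = 5.63e-05). BTC (-1.87 ± 0.23; adjusted p = 1.48e-06) and the EGF gene (-1.18 ± 0.24; adjusted p = 0.000356) fell in NLS and rose with erlotinib. ERBB2 (-0.70 ± 0.18; adjusted p = 0.00359) and ERBB3 (-0.67 ± 0.11; adjusted p = 3.03e-05) rose with erlotinib beyond their difference between the lines. The EGFR difference of 0.37 ± 0.15 (adjusted p = 0.0442) was lost when any of 8 of the 12 libraries of these 4 groups was left out (adjusted p 0.0597 to 0.136), among them WT replicate 2.

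Summed over the 7 ligands, RNA per kb was 15.8, 15.5 and 15.8 CPM per kb in the EGF libraries, 23.3, 22.6 and 22.5 with cSNX1.3, 11.6, 12.9 and 12.5 with erlotinib, 15.7, 14.8 and 16.2 in WT and 12.3, 12.6 and 12.8 in NLS. The cSNX1.3 libraries were above and the erlotinib libraries under the EGF range, and NLS was under WT, in each case without overlap. The log2 ratio of group means was 0.54 for cSNX1.3, -0.35 for erlotinib and -0.31 for NLS vs. WT. No test of the sums was run, because an exact permutation test of 3 against 3 libraries cannot go below p = 0.1. Without AREG the same ratios were 0.19, -0.14 and -0.20.

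The makeup of that pool shifted between groups. TGFA made up 66.4 ± 1.45% of the ligand sum with erlotinib, 55.5 ± 2.80% with EGF and 36.6 ± 2.09% with cSNX1.3 (SD, n = 3), although its own level was not called different in either drug comparison. AREG made up 5.09 ± 0.248%, 17.7 ± 3.37% and 35.3 ± 0.741% in the same order. The share of HBEGF was 5.20 ± 0.427%, 15.6 ± 1.79% and 20.2 ± 2.60%, and that of BTC 17.0 ± 1.27%, 6.88 ± 0.390% and 4.34 ± 0.444%. With cSNX1.3 the shares of AREG and TGFA were nearly equal, and with erlotinib BTC took the place behind TGFA. In the lines TGFA held 41.5 ± 1.56% in WT and 43.5 ± 0.917% in NLS, AREG 23.9 ± 2.19% and 17.6 ± 0.910%, and HBEGF 8.31 ± 2.37% and 21.99 ± 0.234%.

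**Figure D3:**
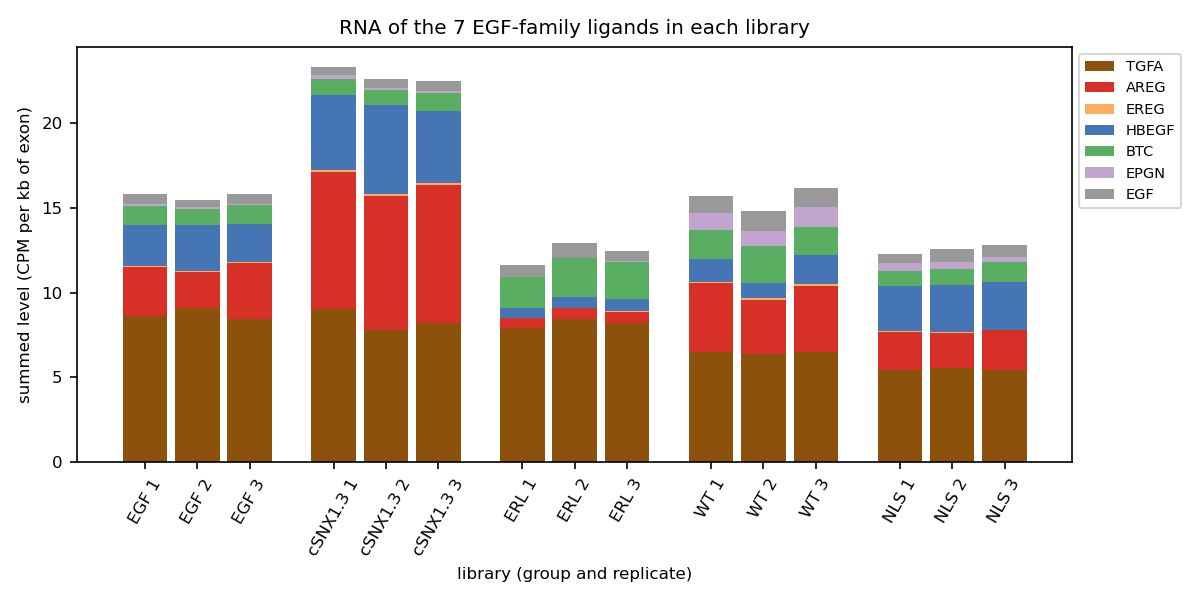
Stacked level of the 7 ligand genes in each of the 15 libraries, in CPM per kb of exon (linear axis from 0), coloured by gene. The cSNX1.3 bars reach 22.5 to 23.3 with a broad AREG band, the erlotinib bars reach 11.6 to 12.9 with a thin AREG and HBEGF band and a broad BTC band, and NLS bars (12.3 to 12.8) are lower than WT bars (14.8 to 16.2) with more HBEGF.

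Across all 5 groups the order of levels differed from member to member. Group means spanned 27.6-fold for EPGN, 12.8-fold for AREG, 7.19-fold for HBEGF, 4.60-fold for EREG and 4.58-fold for EGFR, but 1.60-fold for TGFA and 1.53-fold for ERBB3. The lowest means of EPGN and EREG, those with erlotinib, rest on 1 to 6 and 2 to 7 counts per library, so their spans are uncertain. The spans of EPGN, EREG, EGFR and TGFA run between a drug group and a line. AREG ranked cSNX1.3, WT, EGF, NLS and erlotinib, where WT and EGF overlapped, as did EGF and NLS. HBEGF ranked cSNX1.3, NLS, EGF, WT and erlotinib, and only NLS and EGF overlapped among neighbours. ERBB2 ranked erlotinib, EGF, cSNX1.3, NLS and WT, with EGF and cSNX1.3 overlapping. ERBB3 ranked erlotinib, WT, NLS, EGF and cSNX1.3, where NLS and EGF overlapped, as did EGF and cSNX1.3.

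Levels between the experiments are a description, because knockdown, transfection and handling differ together and cannot be told apart. EGFR was 3.53-fold higher in the EGF group than in WT, ERBB2 1.83-fold and HBEGF 1.88-fold. EPGN was 11.1-fold higher in WT than in the EGF group, the EGF gene 2.07-fold and BTC 1.71-fold, and AREG was 1.34-fold higher with overlapping ranges. Reads counted on the gene targeted by the shRNA were thus fewer in both lines, at 1147 to 1746 CPM against 4318 to 6502 CPM in the 9 drug libraries. Since the length of the EGFR-GFP mRNA is not given, reads per molecule may differ between the lines and the parental cells. The neighbours of EGFR on chromosome 7 were examined beside it, since an amplified stretch usually carries more than 1 gene. Of the 17 other genes within 1 Mb of EGFR with a mean of at least 1 CPM, the ratio of WT to EGF group means ran from 0.578 to 2.56, against 0.283 for EGFR. LANCL2 measured 898 CPM in the EGF group and 1088 in WT, VOPP1 2173 and 2235, and SEC61G 3257 and 1882. In parental cells with erlotinib LANCL2 measured 1163 CPM, VOPP1 1927 and SEC61G 1913, so SEC61G was also low there. The cause of these differences was not tested.

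**Figure D4:**
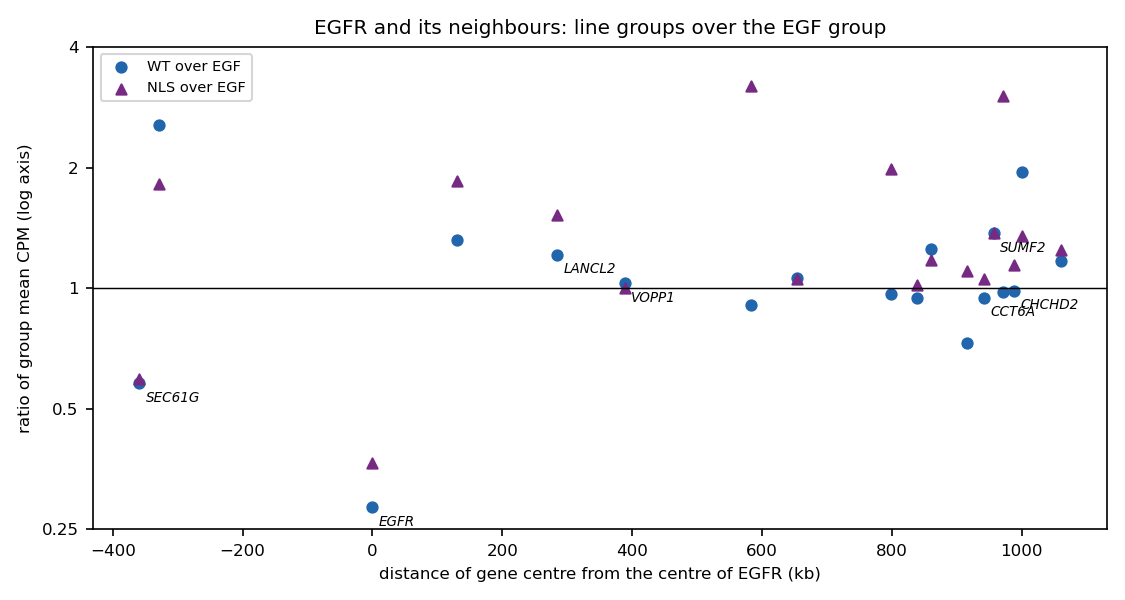
Ratio of group mean CPM, WT over EGF and NLS over EGF (log axis), for EGFR and 17 other genes within 1 Mb, by distance of the gene centre from the centre of EGFR in kb. Genes at 500 CPM or more in the EGF group are named. EGFR lies lowest, at 0.283 and 0.365, SEC61G at 0.578 and 0.594, and VOPP1 at 1.03 and 1.0004.

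Other genes of the pathway were read from lists of general knowledge. Of 13 genes for ligand shedding and sorting, 11 were tested. With erlotinib 2 rose and 4 fell (median log2 fold change -0.03, beside 0.01 over all genes), with cSNX1.3 3 rose and none fell (0.06, beside 0.00), and in NLS 1 rose and 5 fell (-0.18, beside 0.01). RHBDF2 (iRhom2, which carries the sheddase ADAM17 to the cell surface) measured 23.1 ± 1.05 CPM in the erlotinib, 42.0 ± 1.26 in the EGF and 61.5 ± 2.29 in the cSNX1.3 libraries (SD, n = 3). In cSNX1.3 vs. EGF it rose (log2 fold change 0.55; edgeR, adjusted p = 0.000679), fell with erlotinib (-0.86; adjusted p = 1.22e-06) and rose in NLS (0.53; adjusted p = 0.00016). TIMP3, an inhibitor of metalloproteases, rose with erlotinib (0.84; adjusted p = 0.0036). ADAM9, a metalloprotease, fell in NLS (-0.92; adjusted p = 1.13e-08) and with erlotinib (-0.82; adjusted p = 1.79e-06). With cSNX1.3 ADAM9 rose (0.55; adjusted p = 0.000786), so cSNX1.3 and NLS shared a direction for RHBDF2 but not for ADAM9.

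Of 20 genes for receptor turnover and inhibition, all tested, 2 rose and 7 fell with erlotinib (median -0.02), 4 rose and none fell with cSNX1.3 (0.12), and 5 rose and 5 fell in NLS (0.02). ERRFI1 (MIG6, an inhibitor that binds the EGFR kinase domain) measured 32.9 ± 2.71 CPM in the erlotinib, 152 ± 8.49 in the EGF and 244 ± 9.72 in the cSNX1.3 libraries (SD, n = 3). Its log2 fold change was -2.20 with erlotinib (edgeR, adjusted p = 1.09e-10) and 0.68 with cSNX1.3 (adjusted p = 0.000206), and it rose by 0.62 in NLS (adjusted p = 8.53e-06). PTPRK, a phosphatase, rose with erlotinib (0.52; adjusted p = 0.000387), LRIG1, which lowers ERBB receptor levels, rose in NLS (0.74; adjusted p = 2.85e-06), and PTPRJ, a phosphatase, fell in NLS (-0.49; adjusted p = 0.000183).

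Of 15 adaptors and first effectors, all tested, 3 rose and 7 fell with erlotinib (median -0.28), none was called with cSNX1.3 (0.07; 3 had an unadjusted p under 0.05 in edgeR and 1 was called by DESeq2), and 5 rose and 4 fell in NLS (0.10). With erlotinib SOS2, an exchange factor for RAS, rose by 0.97 (edgeR, adjusted p = 9.13e-06), and PLCG1, a phospholipase that docks on EGFR, fell by 0.81 on the log2 scale (adjusted p = 0.000234). In NLS PLCG1 rose by 0.85 (adjusted p = 2.62e-07) and NCK1, an adaptor, fell by 0.53 on the log2 scale (adjusted p = 8.48e-05). Genes called overall made up 44.0%, 6.07% and 41.4% in these comparisons, as above, and the lists were not tested as sets.

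**Figure D5:**
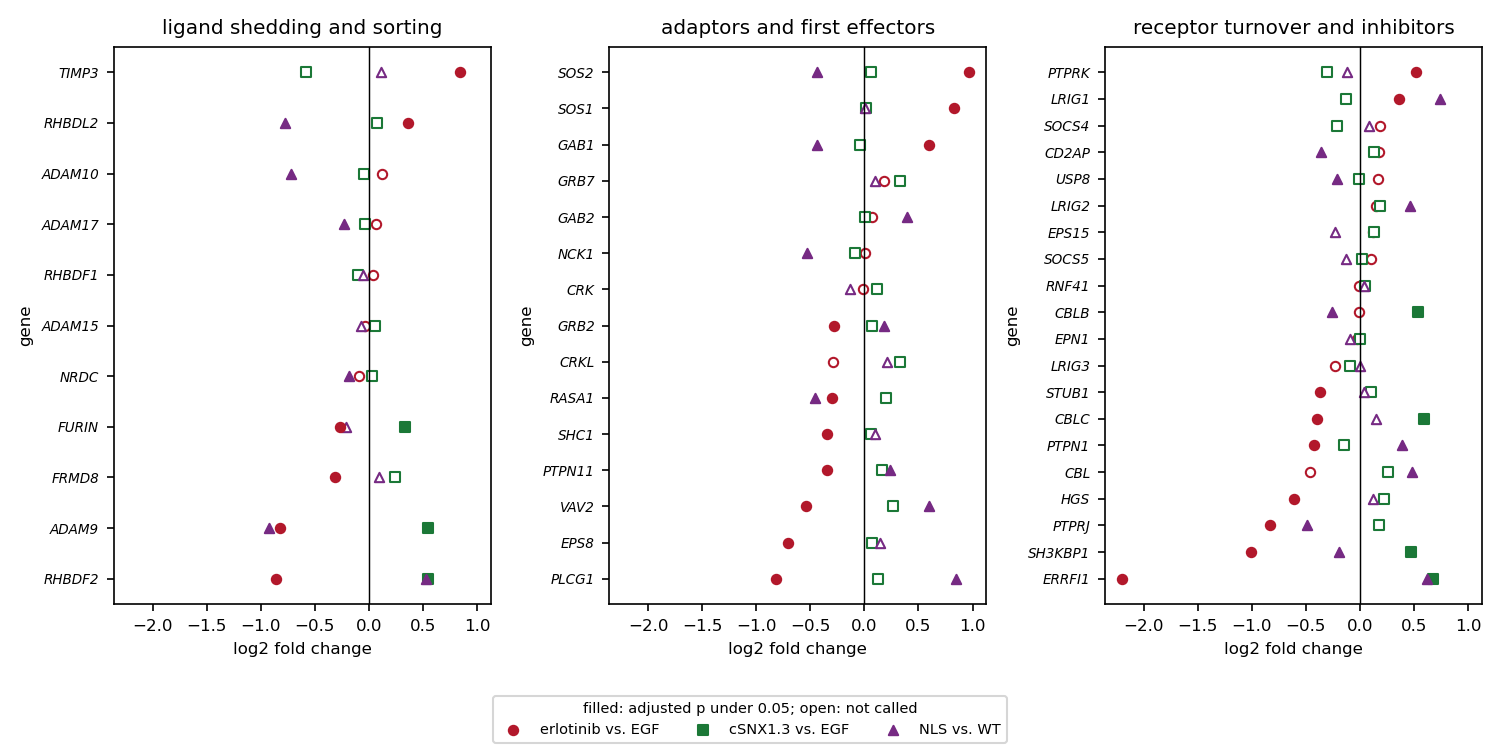
Log2 fold change (horizontal axis) of each tested gene of 3 pathway lists in erlotinib vs. EGF, cSNX1.3 vs. EGF and NLS vs. WT. Filled symbols passed an adjusted p of 0.05 in edgeR, open symbols did not, and genes are ordered by the erlotinib value. ERRFI1 lies at -2.20 with erlotinib and at 0.68 and 0.62 in the other comparisons, RHBDF2 at -0.86, 0.55 and 0.53, and ADAM9 at -0.82, 0.55 and -0.92.

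The genes whose pattern over the 15 libraries was most like that of a member were found by the root mean square difference of centred log2 CPM over 13402 genes, as a description without a test. For AREG these were PHLDA1 (0.311), LY6K (0.314) and PICART1 (0.375), where the median gene stood at 1.19. PHLDA1 measured 38.9 CPM with EGF, 71.5 with cSNX1.3, 8.36 with erlotinib, 40.2 in WT and 36.2 in NLS. For EGFR they were RELL2 (0.205), GRB10 (0.218) and FSTL1 (0.248), where the median was 0.923. Like EGFR, these genes had lower means in both lines than in any drug group. The likeness thus takes in the difference between the experiments, and EGFR was knocked down and reintroduced in the lines. GRB10, an adaptor that binds receptor tyrosine kinases, measured 54.5 CPM with EGF, 71.0 with cSNX1.3, 44.7 with erlotinib, 19.0 in WT and 23.9 in NLS. For ERBB3 they were ANAPC16 (0.0689), APOL6 (0.0867) and EIF3J-DT (0.0869), where the median was 0.362, and for TGFA TRIT1 (0.0747), SNAPC3 (0.0750) and PTP4A2 (0.0773), where it was 0.378.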

How the data were processed

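RNA libraries of 5 groups with 3 replicates each were taken as labelled. The authors trimmed reads with TrimGalore 0.6.7, aligned them to GRCh38 with STAR 2.7.9a and counted read pairs on genes with featureCounts, ignoring strand. They deposited the raw counts, not normalized. The annotation release they used is not given in the sources used here. Of 61552 gene IDs, 61399 matched GENCODE 44, from which symbols, positions and union exon lengths were taken, and 153 did not. Library totals ran from 22915676 to 35900649 counts. Promoter sequences came from RefSeq (GRCh38.p14).

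The tests used edgeR 4.0.16 under R 4.3.3 (TMM, filterByExpr by group, robust quasi-likelihood fit, Benjamini-Hochberg over all genes tested, threshold 0.05) in a fit of the 9 drug libraries, a fit of the 6 line libraries and, for interactions, a fit of all 15. SEs are the log2 fold change over the root of the F statistic, and intervals are 95%. The script was tested on simulated data. The EGF-family members, all 10 of which are named in each main comparison, the pathway lists (with the largest called rise and fall of each list), the markers and the likeness rule (the 3 nearest genes, mean level 1 CPM or more, pseudocount 0.1) were chosen with earlier results of these data known. Alternatives were DESeq2 size factors, DESeq2 1.42.0 as the test, other filters, other sets of libraries, a replicate block, a threshold of 0.01, canonical transcript length, sums without AREG and leaving out each replicate. Leaving out the 3 libraries that stood apart, and levels scaled by DESeq2 size factors, were chosen after seeing the data. Replicates of a group differed by 2.69 to 24.5 times the sampling variance of counts, so none was counted as a copy.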

Additional observations from a re-analysis of the deposited data

How the results depend on the processing

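The cause of changes given here was not tested. The count of members called stayed within 1.5 times its reported value under all alternatives run in erlotinib vs. EGF (5 to 7), cSNX1.3 vs. EGF (2 or 3), cSNX1.3 vs. erlotinib (6 to 9), NLS vs. WT (6 to 9) and the NLS effect less the erlotinib effect (6 or 7). For the NLS effect less the cSNX1.3 effect, 4 became 2 at an adjusted p under 0.01 and without the 3 libraries that stood apart, and leaving out single libraries gave 2 to 5. With at least 10 counts required in every library, EREG and EPGN could not be tested in the drug fit.

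Values near 0 changed sign and were not called under any alternative. EGFR in erlotinib vs. EGF went from 0.00 to -0.0072 with DESeq2 size factors, -0.015 without a filter, -0.0077 with all 15 libraries, -0.00035 with the 2 groups alone, -0.012 in DESeq2 and -0.071 without the 3 libraries, and from -0.076 to 0.039 over single libraries left out. ERBB2 in cSNX1.3 vs. EGF ran from -0.28 to 0.021 over single libraries left out, and the EGF gene from -0.10 to 0.14, with -0.051 without the 3 libraries. TGFA in cSNX1.3 vs. erlotinib was -0.0046 with 10 counts in every library and -0.032 without the 3 libraries, and -0.029 to 0.065 over single libraries left out. The receptor sum in erlotinib vs. EGF was -0.036 without the 3 libraries and -0.036 to 0.062 over single libraries left out. Without AREG the log2 ratio of the ligand sum moved to -0.14 (erlotinib), 0.19 (cSNX1.3) and -0.20 (NLS vs. WT), and with canonical transcript length it was 0.58 for cSNX1.3. Of the shares, 183 alternative values stayed within 1 SD and 47 did not, and all 200 alternative group levels did.

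Deviations of same-numbered replicates from their group means had r from -0.20 to 0.25. With 3 replicates per group this cannot settle whether the samples were paired, and the labels do not say that they were. With a replicate block, 5 members were called in erlotinib vs. EGF (the EGF gene had an adjusted p of 0.0596 in edgeR) and 6 in the NLS effect less the erlotinib effect (EGFR, 0.0678), with 2, 8, 8 and 4 in the other comparisons. Over all genes, the block gave 6707 calls in erlotinib vs. EGF, where 6932 were called without it, and 5766 in NLS vs. WT, where 6538 were.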
